A study of Homo sapiens with 24 samples.

Results

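The comparison described here set SW1783 cells treated with 310 µg/mL of the ethanol extract of Schisandrae Fructus (EESF) against cells that received its vehicle, and asked which genes and pathways changed across the transcriptome. SW1783 is a human astrocytoma line, and Schisandrae Fructus is the dried fruit of Schisandra chinensis. The members were fixed by the labels of treatment, dose and batch: 3 libraries of high-dose EESF and 3 of vehicle B, which are 6 of the 24 libraries of the series. Both groups were grown in Leibovitz's L-15 medium with serum and collected after 24 h in batch B; the vehicle cells received 0.1% DMSO. The 18 other libraries were EESF at 62 µg/mL (medium) and 12.4 µg/mL (low) in batch B, and, in batch A, a hot water extract (WESF) at 500, 100 and 20 µg/mL with a vehicle of its own. Per the study's methods, the high dose of EESF was set at its IC20 in a cytotoxicity test, a dose that inhibits part of the cells, whereas the high dose of WESF was not toxic there. The libraries held mRNA read from total RNA of the bulk culture, in which fewer cells of a type and less RNA per cell cannot be told apart.

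The 3 vehicle B libraries held 20245423, 20465712 and 18727797 expected counts (read pairs assigned to genes), and the 3 high-dose EESF libraries held 29659110, 32567395 and 31255297. The treated libraries were thus all deeper than the vehicle libraries, and calls were repeated after thinning all 6 to the smallest. The mitochondrial genome took 11.6 to 11.9% of reads in vehicle B and 11.2 to 12% in EESF. In a principal component analysis the first component carried 74% of the variance and separated the groups, with scores of −25.9, −30.4 and −30.3 for vehicle B and 24.7, 30.2 and 31.7 for EESF. EESF replicate 1 lay nearer to the vehicle libraries than the other two treated libraries did.

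As background, cells read their supply of glucose, amino acids and oxygen through separate sensors. The MondoA/MLX pair of transcription factors responds to glucose phosphates and switches on the α-arrestins TXNIP and ARRDC4, which limit glucose uptake. When amino acids run short or unfolded proteins gather in the endoplasmic reticulum, the integrated stress response slows protein synthesis and translates the factor ATF4, which switches on amino acid synthesis and transport. In astrocytes and gliomas, NF-kappaB and AP-1 drive cytokines such as interleukin-8, while E2F factors drive the genes of DNA replication.

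At high-dose EESF, 2276 of 13092 protein-coding genes tested were differentially expressed genes (DEGs), which is 17.4% of them. To count as a DEG, a gene needed a change beyond 1.5-fold as well as an adjusted p under 0.05 (edgeR, quasi-likelihood). Of these, 1075 rose (8.21% of genes tested) and 1201 fell (9.17%). Most changes were moderate: 364 rising and 387 falling DEGs passed a fold of 2, and 41 and 42 passed a fold of 4. The median log2 change of all genes was 0.01, and the 5th and 95th percentiles were −0.81 and 0.78. Without the threshold on fold, 7589 genes (58%) had an adjusted p under 0.05, 29.3% of all genes on the higher side and 28.7% on the lower side. The 3 libraries of one group did not overlap the 3 of the other in 8235 genes (62.9%), so a lack of overlap alone marked no gene out in these data. Counts in the gene lists are read against these shares of all genes.

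The gene with the largest rise was TXNIP (ENSG00000265972; GRCh38, chr1:145992435-145996579, minus strand), the α-arrestin that binds thioredoxin and restrains glucose uptake. Its normalized counts were 273, 264 and 244 in vehicle B and 7543, 7145 and 7441 in EESF, a 28.3-fold rise (log2 4.82 ± 0.066 SE, edgeR adjusted p = 1.36e-13). Per length, TXNIP went from between 9.25 and 10.3 TPM, a level scaled for gene length and depth, to at least 260 TPM. ARRDC4, a second α-arrestin, had 144, 135 and 156 normalized counts in vehicle B and 808, 729 and 734 in EESF (5.22-fold). Both genes were chosen for a large rise with no overlap between the groups, so that separation is not a further result.

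CXCL8 and THBD were among the 12 largest rises of genes that averaged 100 or more normalized counts and whose groups stood apart. CXCL8, which encodes the neutrophil attractant interleukin-8, had 66.5, 55 and 80.8 normalized counts in vehicle B and 554, 490 and 590 in EESF (8.11-fold, adjusted p = 5.43e-09). THBD, the thrombin receptor thrombomodulin, went from 212, 216 and 226 to 1558, 1541 and 1510 (7.05-fold). IL1B, the fever cytokine interleukin-1β, rose 4.95-fold and ANGPTL4, a secreted inhibitor of lipoprotein lipase, rose 5.28-fold. The 12 largest rises also held AKR1C1, an aldo-keto reductase, at 3.62-fold, the channel gene PANX2 and FAM167A. KRTAP2-3, a hair keratin-associated protein, rose 14-fold (92.8, 88.7 and 84.9 against 1165, 1154 and 1418). KRTAP2-3, AKR1C1 and FAM156B have near-identical relatives among which the read counter divides shared reads, so their values are less certain. ENSG00000255730 had 66.5, 0 and 107 normalized counts in vehicle B against 151, 219 and 204 in EESF, and was not a DEG with DESeq2 (adjusted p = 0.365).

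Of genes chosen in the same way, ITGB8, the integrin β8 subunit that activates latent TGF-β, fell most. It had 1121, 1211 and 1358 normalized counts in vehicle B and 132, 137 and 127 in EESF (9.32-fold lower, adjusted p = 2.16e-10). HTR2A, a serotonin receptor, fell from 157, 210 and 220 to 26.7, 21.1 and 31.7 (7.36-fold lower). VAV3, a guanine nucleotide exchange factor, fell from 332, 337 and 323 to 55.1, 49.3 and 42.2 (6.77-fold lower). Lack of overlap between the groups was part of how these genes were chosen, so it adds nothing to their falls. NDST3, an enzyme that sulfates heparan sulfate, was 5.54-fold lower, PTPRC, the phosphatase CD45, 5.19-fold lower and EPHA3, an ephrin receptor, 4.76-fold lower. MAP2, a microtubule protein of dendrites, was 4.06-fold lower and the clock-output factor HLF 3.96-fold lower. KLHL4, STON2, FAM13C and RAB7B made up the rest of the 12.

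**Figure D1:**
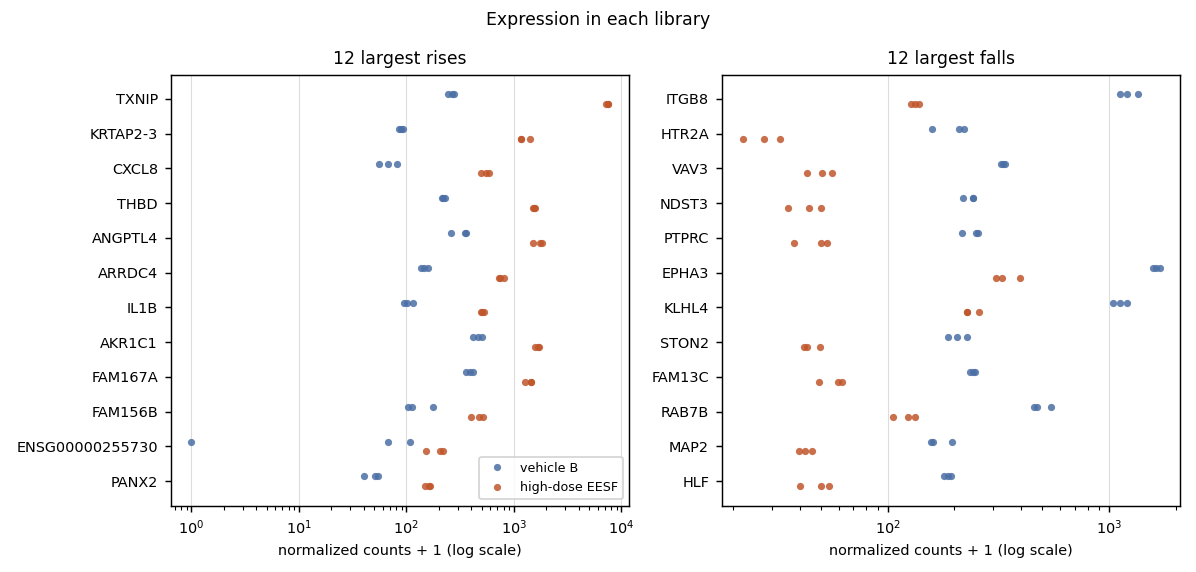
Normalized counts plus 1 (log axis) in each library for the 12 largest rises (left) and the 12 largest falls (right), 3 points each for vehicle B and high-dose EESF. TXNIP lies at 244 to 273 in vehicle B and 7145 to 7543 in EESF, ITGB8 at 1121 to 1358 and 127 to 137, and the point at the far left is the vehicle library in which ENSG00000255730 was at 0.

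Of 8 tested members of the MondoA/MLX and α-arrestin list, 5 rose (62.5%, beside 8.21% of all genes tested) and 1 fell, with a median log2 change of 0.65. Besides TXNIP and ARRDC4, the risers were MLXIPL (1.86), which encodes the related glucose-responsive factor ChREBP, ARRDC2 (0.67) and ARRDC1 (0.63). MLXIPL averaged under 20 normalized counts, so its value is less certain. The count of risers was 4 without EESF replicate 3 or vehicle B replicate 3. ARRDC3 had a log2 change of −0.59, which missed the fold threshold at equal depth and without EESF replicate 2 (−0.56) or vehicle B replicate 3 (−0.55). The genes of the MondoA/MLX pair itself changed less than MLXIPL: MLXIP, which encodes MondoA, was at log2 0.18 and MLX at 0.38, neither a DEG. Of 25 genes of glucose uptake and glycolysis, 2 rose, ALDOC (0.74) and ENO2 (0.73), and none fell, with a median of −0.06. The share that rose, 8%, is near the 8.21% of all genes tested. At an adjusted p under 0.05, 7 were higher and 8 lower, also near the shares of all genes (29.3% and 28.7%). Summed over the list, the level went from 14939, 13935 and 14105 TPM in vehicle B to 11534, 12452 and 12499 in EESF, with GAPDH the most abundant gene. None of 7 pentose phosphate genes was a DEG (median 0.21), though TALDO1 (0.54) became one without EESF replicate 1.

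The upstream sequence of ARRDC4 is shown because it carries the palindromic E-box letters CACGTG that MondoA/MLX is known to bind. It is given 5′ to 3′ with those letters in capitals and was taken from RefSeq (GRCh38.p14, chr15:97960473-97960518, plus strand), with the E-box starting 210 bases before the annotated start.
ARRDC4: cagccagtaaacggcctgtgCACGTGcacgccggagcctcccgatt
The letters were searched on both strands in windows of 300 bases around each annotated start. They occurred in 2 of 11 promoters of the 8 genes in this list (18.2%), in 9.19% of promoters of the genes tested and in 7.26% of all promoters in the table. The listed promoters of TXNIP did not have these letters in the 250 bases before the start. The same search among the largest rises and falls looked for 2 other elements in those 250 bases. It found ATF4 element letters (TGATGNAA) in HTR2A and antioxidant response element letters (TGACNNNGC) in VAV3 and STON2, all genes that fell. Of promoters of genes tested, 1.64% and 11.5% held these letters.

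Of 26 tested ATF4 targets, the genes of the integrated stress response, 16 rose (61.5%, beside 8.21% of all genes) and none fell, with a median log2 change of 0.73 against 0.01 over all genes. Of these 26, 25 were higher and 1 lower at an adjusted p under 0.05, where 29.3% and 28.7% of all genes were. TRIB3, the pseudokinase that ATF4 induces, had 675, 632 and 660 normalized counts in vehicle B and 1735, 1767 and 1756 in EESF (log2 1.42 ± 0.056 SE). ASNS, asparagine synthetase, rose from 1319, 1217 and 1256 to 2947, 2894 and 2822, and PYCR1, of proline synthesis, rose by log2 1.11. SESN2, which restrains mTORC1, was at 1.10, CHAC1, which degrades glutathione, at 1.00 and the apoptotic factor DDIT3 (CHOP) at 0.76. ATF4 itself is controlled mainly in translation, and its mRNA was at log2 0.52, under the fold threshold (adjusted p = 9.2e-06).

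Of 19 tested transporters of amino acids, 5 rose (26.3%, beside 8.21% of all genes) and 3 fell (15.8%, beside 9.17%). The glutamine carrier SLC1A5 rose from 8011, 7797 and 7640 normalized counts to 12624, 12869 and 12342, and the glycine carrier SLC6A9 rose by log2 0.90. SLC38A4 fell from 251, 192 and 207 to 73.1, 67.3 and 49.5, and SLC38A2, itself known as an ATF4 target, fell by log2 0.68. SLC1A3, the glial glutamate carrier, fell from 797, 776 and 753 to 274, 300 and 316. Among 20 cytosolic aminoacyl-tRNA synthetases, 15 were higher and 1 lower at an adjusted p under 0.05, beside 29.3% and 28.7% of all genes, and the median was log2 0.25. Only CARS1, at log2 0.59, passed the fold threshold, and the count of DEGs was 0 without EESF replicate 2, EESF replicate 3 or vehicle B replicate 3, at equal depth or over all genes of the table, and 2 without EESF replicate 1.

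Some chaperones of the endoplasmic reticulum rose. HSPA5, the chaperone BiP, had 75917, 79429 and 78683 normalized counts in vehicle B and 134031, 140490 and 144833 in EESF (log2 0.84 ± 0.049 SE). PDIA4, a disulfide isomerase, and ERN1, the sensor IRE1, rose by log2 0.81 and 0.75. In all, 5 of 24 genes of this list rose (20.8%, beside 8.21% of all genes) and none fell, with a median of 0.17. XBP1 was at log2 0.32 and not a DEG. Of 24 heat shock proteins and co-chaperones, none rose as a DEG and HSPB8, a small heat shock protein, fell by log2 0.85. At an adjusted p under 0.05 alone, 9 were higher, the highest being AHSA1, a co-chaperone of HSP90, at 0.58, and 6 were lower, near the 29.3% and 28.7% of all genes. HSF1 was at 0.37 and not a DEG. Without EESF replicate 2, 2 genes of this list fell, and without EESF replicate 1 or vehicle B replicate 1, 1 rose.

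**Figure D2:**
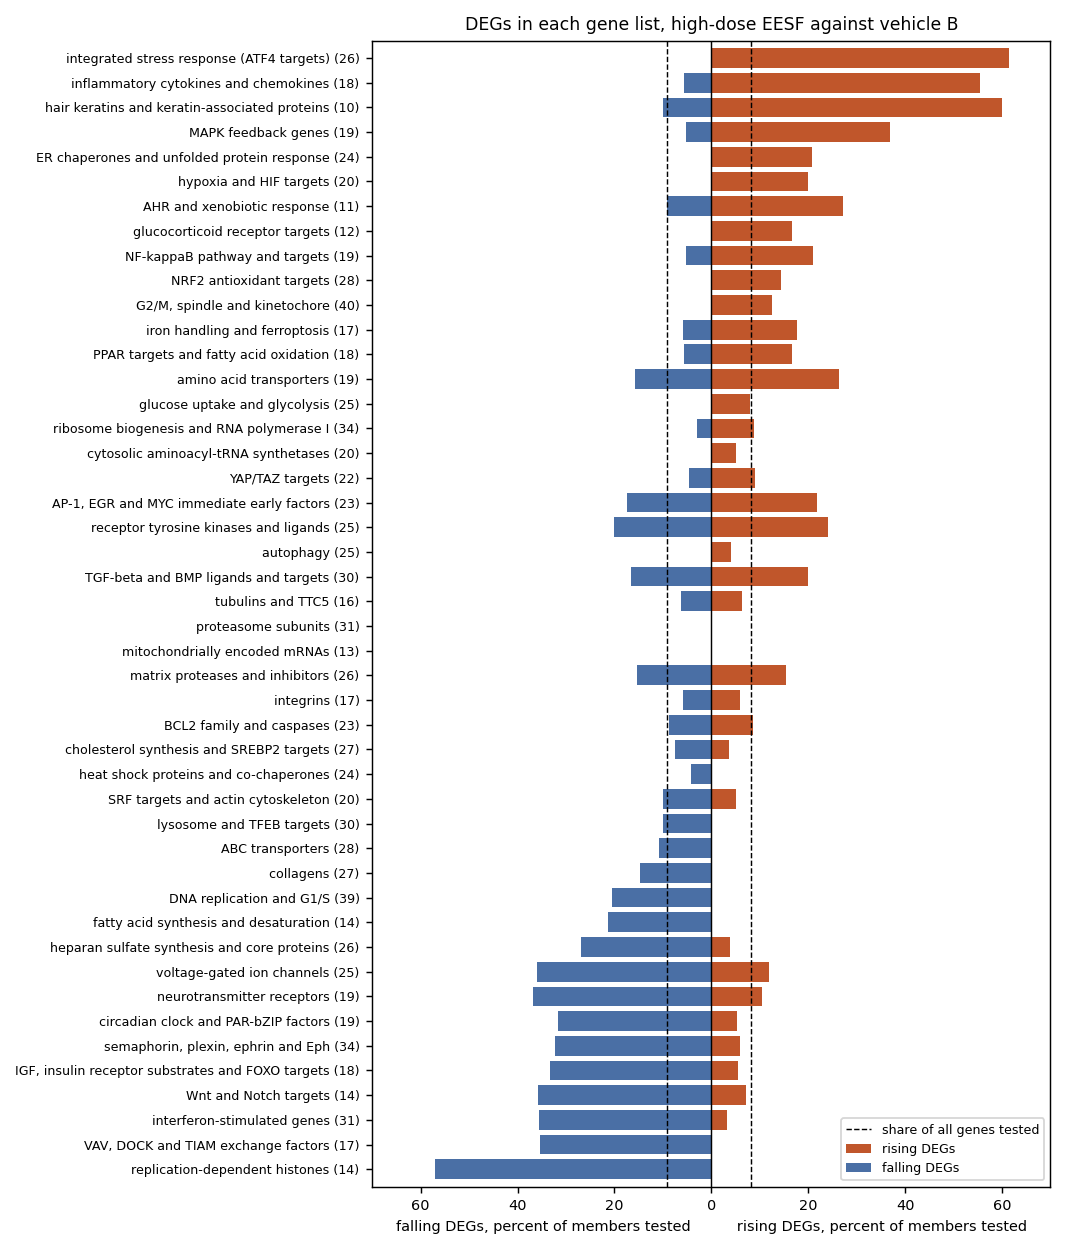
Percent of tested members that were rising or falling DEGs at high-dose EESF, for gene lists with at least 10 tested members (number in brackets) other than cell type markers and 1 list not reported here, ordered from lists with more risers to lists with more falls. The dashed lines mark the shares of all genes tested, 8.21% rising and 9.17% falling; the ATF4 targets reach furthest to the right and the histones furthest to the left.

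Of 28 tested NRF2 targets, 4 rose (14.3%, beside 8.21% of all genes) and none fell: AKR1C1, SLC6A9, the sulfiredoxin gene SRXN1 (0.68) and the thioredoxin reductase gene TXNRD1 (0.65). At an adjusted p under 0.05, 18 were higher and 3 lower, beside 29.3% and 28.7% of all genes, and the median was 0.26. The factor gene NFE2L2 was at 0.12 and its inhibitor KEAP1 at −0.08, neither past the test. CYP1A1, a classic target of the aryl hydrocarbon receptor, had 15, 22.5 and 24.6 normalized counts in vehicle B and 42.2, 42.2 and 34.1 in EESF, and CYP2S1 and ALDH3A1 rose by log2 0.89 and 1.56. The receptor gene AHR (−0.43) and CYP1B1 (−0.37) were not DEGs. CYP3A5 fell by log2 1.3, which left 3 risers (27.3%) and 1 fall (9.09%) among 11 genes. The drug pump gene ABCB1 fell from 524, 525 and 602 to 371, 305 and 293, and of 28 ABC transporters 3 fell (10.7%, beside 9.17% of all genes tested) and none rose.

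Hypoxia and PPAR targets rose more often than they fell, with medians of log2 0.12 and 0.18. Of 20 hypoxia targets, 4 rose (20%, beside 8.21% of all genes tested) and none fell: ANGPTL4, NDRG1 (log2 1.16), DDIT4 (1.02), which inhibits mTORC1, and VEGFA (0.80), the vascular growth factor. A further 5 were higher and 6 lower at an adjusted p under 0.05 without reaching the fold threshold, and HIF1A was at 0.04. The lipid droplet protein PLIN2 had 1486, 1272 and 1414 normalized counts in vehicle B and 3169, 3400 and 3392 in EESF. PDK4, a kinase that inhibits pyruvate dehydrogenase, rose by log2 1.68 from 11.3 to 23.3 normalized counts up to 51.6 to 62.5. PPARGC1A, the coactivator of mitochondrial biogenesis, fell from 51.4, 58.7 and 68.5 to 8.61, 4.69 and 10.6 (log2 −2.89 ± 0.27 SE). With PDK4, ANGPTL4 and PLIN2, 3 of 18 PPAR and fatty acid oxidation genes rose (16.7%), and PPARGC1A was the 1 that fell.

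Of 27 cholesterol and SREBP2 genes, 12 were lower and 4 higher at an adjusted p under 0.05, beside 28.7% and 29.3% of all genes. As DEGs 2 fell (7.41%, beside 9.17% of all genes tested), among them LSS (−0.76), the synthase of lanosterol, and 1 rose (3.7%). Among 14 fatty acid synthesis genes 3 fell (21.4%), with FADS2 at −0.61 and LPIN1 at −0.62. ACACA, at −0.59, missed the fold threshold without EESF replicate 3 or vehicle B replicate 3.

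Of 39 genes of DNA replication and the G1/S transition, 8 fell (20.5%, beside 9.17% of all genes tested) and none rose, and 31 were lower and 2 higher at an adjusted p under 0.05, where 28.7% and 29.3% of all genes were (median log2 −0.28). CCNE2, the cyclin E2 gene, had 558, 495 and 522 normalized counts in vehicle B and 287, 283 and 259 in EESF. E2F2, a transcription factor of the G1/S step, fell by log2 1.18, the polymerase gene POLA1 by 0.92, and the helicase subunit MCM3 by 0.87. Of 40 G2/M, spindle and kinetochore genes, 5 rose (12.5%, beside 8.21% of all genes tested) and none fell, with 23 higher and 6 lower at an adjusted p under 0.05 (median 0.20). PTTG1, securin, went from 3086, 2955 and 2643 to 4628, 5118 and 4962, AURKB, the Aurora B kinase, rose by log2 0.76 and BUB3 by 0.66. MKI67, the proliferation marker, was at −0.43 and FOXM1 at −0.18, neither a DEG. Of 14 replication-dependent histone genes 8 fell (57.1%) and none rose (median −0.72), for example H2AC6 from 174, 169 and 177 to 80.9, 68 and 84.5; histone genes are near-identical and reads are shared among them.

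Sequence upstream of the replication genes that fell is shown because all 6 of those found in the RefSeq promoter table, of the 8, held the E2F letters TTTNNCGC (either strand) in the 250 bases before the start. Capitals mark 1 match in each stretch, and in E2F2 and MCM6 a second match on the other strand overlaps it, partly in lower case. CDC25C is shown beside them as the rising G2/M gene whose upstream window held the letters TTTGAA of the cell cycle homology region (CHR), 1 of 3 found among 5. All are on GRCh38.p14, 5′ to 3′ on the gene's strand.
E2F2 (chr1:23531249-23531286, minus): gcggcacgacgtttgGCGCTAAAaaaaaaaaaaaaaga
MCM3 (chr6:52284870-52284907, minus): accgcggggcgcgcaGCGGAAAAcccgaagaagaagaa
MCM6 (chr2:135876507-135876544, minus): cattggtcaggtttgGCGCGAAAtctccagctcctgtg
POLA1 (chrX:24693766-24693803, plus): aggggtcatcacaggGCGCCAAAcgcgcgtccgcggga
TYMS (chr18:657599-657636, plus): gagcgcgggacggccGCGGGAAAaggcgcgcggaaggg
UHRF1 (chr19:4909472-4909500, plus): aaatgccgagttttcGCGGGAAAaaaatc
CDC25C (chr5:138331814-138331849, minus): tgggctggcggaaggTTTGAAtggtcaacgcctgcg
In windows of 300 bases, the E2F letters occurred in 21 of 41 promoters of the tested replication genes (51.2%) against 9.58% of promoters of genes tested, and the CHR letters in 27 of 40 promoters of the G2/M genes (67.5%) against 10.6%. Of all promoters in the table, 6.89% held the E2F letters and 15.2% the CHR letters. A match describes letters in a window and is not evidence that a factor was bound there.

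Of 23 BCL2 family and caspase genes, 2 rose and 2 fell (8.7% each), near the shares of all genes tested (8.21% and 9.17%). BBC3 (PUMA), a death-promoting BCL2 relative, rose by log2 1.42 and PMAIP1 (NOXA) by 0.70, though BBC3 averaged under 20 normalized counts. BMF fell from 124, 154 and 122 normalized counts to 32.7, 43 and 28.4 and BCL2L11 (BIM) fell by log2 0.86. Among single genes of growth arrest and stress, BTG2, a growth inhibitor, rose by 1.38. GDF15, a stress cytokine that belongs to the ATF4 list as well, rose by 1.07. Both were chosen from the list that is not reported here, which held falling as well as rising DEGs, so they do not stand for it. CDKN1A (p21), an inhibitor of cyclin-dependent kinases, was at log2 −0.03 and was not a DEG.

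**Figure D3:**
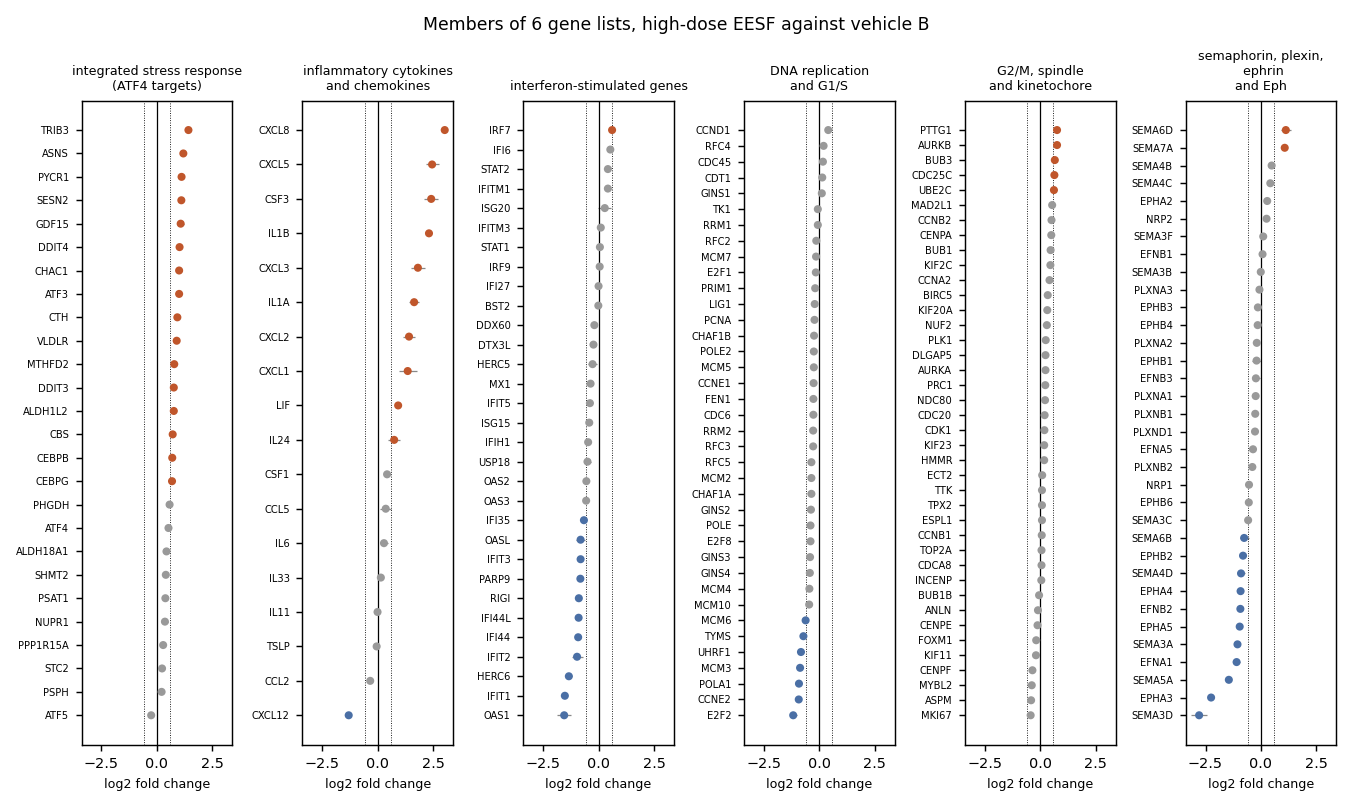
Log2 fold change of the tested members of 6 gene lists, but for 1 gene not reported here, at high-dose EESF against vehicle B, with bars for the SE, rising DEGs in orange, falling DEGs in blue, other genes in grey and dotted lines at a 1.5-fold change. All ATF4 targets but 1 lie right of 0, the cytokines reach from −1.31 (CXCL12) to 3.02 (CXCL8), and the coloured points of the replication list all lie to the left and those of the G2/M list to the right.

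Cytokine genes rose more often than they fell. Of 18 tested, 10 rose (55.6%, beside 8.21% of all genes) and CXCL12 fell (5.56%, beside 9.17%), and the median was log2 0.83, with 0.62 without EESF replicate 3 and 0.99 without vehicle B replicate 1. CXCL5 went from 8.78, 7.5 and 4.11 normalized counts to 41.3, 35.2 and 38.2, and CSF3, the granulocyte growth factor, from 6.27, 5 and 8.22 to 33.6, 29.7 and 41.4. CXCL5 and CSF3 passed the filter on low counts through their treated libraries, so only a rise could bring them into the 18. CXCL3 (1.81), IL1A (1.64) and CXCL2 (1.41) rose with CXCL8 and IL1B, all members of the interleukin-1 family or of the group of chemokines that attract neutrophils. CXCL12, which attracts lymphocytes and stem cells, fell from 352, 391 and 366 to 157, 138 and 152. Of 19 NF-kappaB pathway genes 4 rose (21.1%): IER3 (1.54), PTGS2 (1.08), the prostaglandin synthase COX-2, NFKB2 (0.73) and TRAF1 (0.64). REL fell by log2 0.89, with 330, 422 and 529 against 278, 257 and 156, and the inhibitor NFKBIA (0.19) and RELA (0.34) were not DEGs.

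Interferon-stimulated genes fell more often than they rose. Of 31 tested, 11 fell (35.5%, beside 9.17% of all genes) and 1 rose (3.23%, beside 8.21%), and the median was −0.42. IFIT1, which binds foreign RNA caps, had 258, 244 and 262 normalized counts in vehicle B and 86.9, 79 and 99.9 in EESF (log2 −1.52 ± 0.11 SE), with no overlap. OAS1, which senses double-stranded RNA, fell by log2 1.55, HERC6, a ubiquitin ligase, by 1.34 and RIGI, an RNA sensor, by 0.89. OAS1 averaged under 20 normalized counts, so its value is less certain. IFIT2 had 198, 121 and 156 against 63.7, 58.7 and 120, where EESF replicate 3 came close to the lowest vehicle library. IRF7, the single riser at log2 0.61, missed the fold threshold without EESF replicate 2 or vehicle B replicate 3, and without EESF replicate 1 there were 2 risers.

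The immediate early factors were mixed, and the genes of MAP kinase feedback rose more often than they fell. Of 23 immediate early factors, 5 rose (21.7%, beside 8.21% of all genes) and 4 fell (17.4%, beside 9.17%). FOSL1, the Fra-1 subunit of AP-1, rose from 7684, 7798 and 8366 normalized counts to 16640, 16375 and 14789, and JUN (0.68), ATF3 (1.00) and KLF2 (1.13) rose too. EGR1 fell from 3621, 4268 and 4373 to 1754, 1418 and 1662, and EGR2, EGR3 and FOS fell by log2 1.18, 1.22 and 0.75. EGR2 averaged under 20 normalized counts. MYC was at 0.37 and not a DEG. Of 19 feedback genes, which include the ETS factors ETV4 and ETV5 beside the inhibitors, 7 rose (36.8%) and 1 fell (5.26%), with a median of 0.36. DUSP1, a MAP kinase phosphatase, rose from 1031, 1003 and 986 to 2271, 2292 and 2383, ETV4, a transcription factor that ERK signalling induces, by log2 1.15 and DUSP6, which acts on ERK, by 0.86, while DUSP10, which acts on JNK and p38, fell by 1.29.

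PLAUR, the urokinase receptor, rose from 1535, 1443 and 1542 normalized counts to 3570, 3979 and 4156, and F3, tissue factor, which starts clotting, from 3478, 3211 and 3231 to 8351, 7736 and 8492. Each group stood well apart in both genes. INHBA, the activin A subunit, rose from 1802, 1749 and 1713 to 5126, 5034 and 5863, while BMP4 fell by log2 1.29 and ID2, a target of BMP signalling, by 1.36. The TGF-β and BMP list as a whole split into 6 risers (20%, beside 8.21% of all genes) and 5 falls (16.7%, beside 9.17%) of 30, with a median of −0.02. Of 27 collagens 4 fell (14.8%, beside 9.17% of all genes tested) and none rose, with COL12A1 falling from 9037, 10242 and 10139 to 4897, 4330 and 3860. The 26 matrix proteases and inhibitors had 4 risers and 4 falls (15.4% each, beside the same 8.21% and 9.17%), among them ADAMTS6 (1.15), the membrane protease MMP14 (0.86) and MMP16 (−1.28).

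Of 22 YAP/TAZ targets, F3 and CCN1 (0.77) rose (9.09%) and ANKRD1 (−0.66) fell (4.55%), beside 8.21% and 9.17% of all genes tested, with CCN2 at 0.19 and YAP1 at −0.13, neither a DEG. Leaving out EESF replicate 1 or vehicle B replicate 1 gave 2 falls. Of 20 SRF and actin genes, 11 were lower and 2 higher at an adjusted p under 0.05, and 2 fell (10%) and 1 rose (5%) as DEGs, near the shares of all genes. LMOD1, leiomodin 1, which nucleates actin filaments, rose by log2 0.69. ACTA2, smooth muscle actin, fell from 2527, 2444 and 2269 normalized counts to 1377, 1413 and 1381, and TPM1 had a log2 change of −0.62 that missed the fold threshold without EESF replicate 1 (−0.57). In the list of hair keratins and related proteins, 6 of 10 genes rose (60%), KRT34 from 5.02, 5 and 4.11 to 48.2, 55.5 and 56. KRT34 passed the filter on low counts through its treated libraries, so only a rise could bring it into the 10. KRT18 (−0.67), a keratin of simple epithelia in the same list, fell, a call that was lost without EESF replicate 1.

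Genes of cell guidance and of the heparan sulfate surface fell more often than they rose. Of 34 semaphorin, plexin, ephrin and Eph genes, 11 fell (32.4%, beside 9.17% of all genes) and 2 rose (5.88%, beside 8.21%), with a median of −0.26. SEMA5A, an axon guidance cue, fell from 4033, 4668 and 4937 normalized counts to 1921, 1614 and 1441, and EPHA3 from 1576, 1692 and 1632 to 395, 308 and 329. SEMA7A rose by log2 1.07. Of 26 heparan sulfate genes, 7 fell (26.9%) and 1 rose (3.85%): besides NDST3, the sulfotransferases HS3ST1 and HS6ST3 fell by 1.43 and 1.01, and the glypican GPC2 rose by 1.3. Of 17 exchange factors of the VAV, DOCK and TIAM families none rose and 6 fell (35.3%), with DOCK11 at −0.77 after VAV3. Among 17 integrins, ITGB8 at −3.22 and ITGB3 at 0.94 were the DEGs (5.88% in each direction).

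Of 18 tested genes of the IGFs and their binding proteins, the insulin receptor substrates and the FOXO factors and targets, 6 fell (33.3%, beside 9.17% of all genes), and 4 to 6 fell under the alternatives. IRS1, the insulin receptor substrate, fell from 2218, 2378 and 2774 normalized counts to 1218, 1054 and 1050, FOXO1, a factor that insulin inhibits, by log2 1.05 and PIK3R1, the p85 subunit of PI3-kinase, by 0.78. In that list IGF2 (0.98) rose, a call that was lost with DESeq2 and without EESF replicate 2 or 3 or vehicle B replicate 1 or 3. Of 25 receptor tyrosine kinases and ligands, 6 rose (24%, beside 8.21% of all genes) and 5 fell (20%). The risers were all ligands, among them PDGFA (0.92), FGF1 (0.91) and HBEGF (0.74). The falls were 4 receptors, KIT from 1229, 1364 and 1313 to 631, 576 and 654, PDGFRB (−0.73), FGFR3 (−0.70) and PDGFRA (−0.60), and the ligand PDGFD (−1.61). PDGFRA was no longer a DEG without EESF replicate 3.

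Neurotransmitter receptors and ion channels fell more often than they rose. Of 19 tested receptors, 7 fell (36.8%, beside 9.17% of all genes) and 2 rose (10.5%, beside 8.21%), with a median of −0.40. Besides HTR2A, the muscarinic receptor CHRM3 fell by log2 1.88 and the dopamine receptor DRD2 by 1.27, though both averaged under 20 normalized counts. The AMPA receptor subunit GRIA3 fell from 312, 340 and 379 normalized counts to 219, 188 and 183. HTR1D rose from 85.3, 107 and 101 to 250, 254 and 257, and without EESF replicate 1 only 1 receptor rose. Of 25 voltage-gated and leak channels, 9 fell (36%) and 3 rose (12%). The sodium channel SCN9A fell from 103, 124 and 104 to 49.1, 41.4 and 34.9 and the potassium channel KCNK2 by log2 1.11, while KCNK6 rose by 1.00 and KCNC4 by 0.90.

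The label of an astrocytoma line was checked against cell type markers. Of 16 astrocyte markers 9 were tested, GFAP, S100B, AQP4, ALDH1L1, SLC1A2, SOX2 and FABP7 were too low to test, and FABP7 was at 0 in all 6 libraries. The defining marker GFAP had 1, 0 and 1 expected counts in vehicle B and 8, 10 and 8 in the deeper EESF libraries, under the filter and not tested. VIM was the most abundant of the list. Summed over the list, the level was 4455, 4504 and 4586 TPM in vehicle B and 4090, 4311 and 4259 TPM in EESF. SOX9, an astroglial factor, fell from 1916, 2143 and 2254 normalized counts to 1099, 1236 and 1234, with SLC1A3 the other astrocyte marker that fell. Of 12 fibroblast and mesenchymal markers 3 fell (25%, beside 9.17% of all genes), PDGFRB, PRRX1 (−0.71) and COL3A1 (−0.70), with summed levels of 3313, 3405 and 3353 TPM against 2794, 2829 and 2772 TPM, mostly COL1A1.

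Markers of other cell types were mostly absent or low. Of the neuron markers 7 of 12 were tested, and 4 fell (57.1%, beside 9.17% of all genes): MAP2, NEFL (−1.92), SYT1 (−1.18) and SNAP25 (−1.10). Their summed level was 71.1, 73.8 and 70.3 TPM against 45.4, 52.1 and 50.8 TPM, with TUBB3 the most abundant. RBFOX3, STMN2, DCX, NEFM and SLC17A7 were not tested, and DCX was at 0 in all 6 libraries. SYN1 (0.60) rose, a call that was lost over all genes of the table and without EESF replicate 2 or 3 or vehicle B replicate 3. Of the 3 microglia and leukocyte markers tested, PTPRC and CSF1R (−0.96) fell (66.7%), the summed level was 294, 330 and 316 TPM against 399, 395 and 405 TPM, nearly all CD68, and AIF1, CX3CR1, ITGAM, CD14, TYROBP, P2RY12 and C1QA were not tested, with AIF1, TYROBP, P2RY12 and C1QA at 0 throughout. Oligodendrocyte lineage markers summed to 145, 137 and 145 TPM against 132, 134 and 126 TPM, mostly CSPG4, with PDGFRA the only fall of 4 tested (25%). Endothelial markers summed to 17.8, 19.4 and 19.9 TPM against 23.1, 21.9 and 21 TPM, mostly KDR, with no DEG of 3. The part of these marker levels in the falls of neural receptors and channels was not tested.

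Of 19 clock genes 6 fell (31.6%, beside 9.17% of all genes), including HLF, TEF (from 1172, 1073 and 1109 normalized counts to 647, 635 and 585), PER3 (−0.83), PER2 (−0.67) and RORB (−2.02). RORB averaged under 20 normalized counts. BMAL1 was at −0.38 and not a DEG, and NPAS2 (0.59) rose, a call that was lost over all genes of the table and without EESF replicate 1 or 3 or vehicle B replicate 1 or 2. Of 14 Wnt and Notch targets 5 fell (35.7%). TCF7 fell from 1797, 2013 and 1883 to 831, 758 and 704, DKK1, a secreted Wnt inhibitor, by log2 0.99 and AXIN2, a feedback target of β-catenin, by 0.98. HES4, a Notch target, rose by 1.91.

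None of 31 proteasome subunits was a DEG, and their median was 0.01. Of 25 autophagy genes, WIPI1, which is needed to form autophagosomes, rose from 646, 666 and 660 normalized counts to 1249, 1361 and 1352 and none fell. Of 30 lysosomal genes none rose and 3 fell (10%, beside 9.17% of all genes tested), with TFEB, a factor that activates lysosomal genes, at −0.36 and not a DEG. Of 34 ribosome biogenesis genes, 3 rose (8.82%, beside 8.21% of all genes tested), among them NOLC1 (0.66) and GNL3 (0.71), and UTP20 (−0.68) fell. At an adjusted p under 0.05 alone, 22 were higher and 4 lower, where 29.3% and 28.7% of all genes were. Of 6 tested zinc response genes, the importer SLC39A10 (0.77) rose (16.7%, beside 8.21% of all genes) and the exporter SLC30A1 (−0.83) and MT1E (−0.85) fell (33.3%, beside 9.17%), while MTF1 was at −0.09. Without EESF replicate 1 or vehicle B replicate 1 or 2, a second gene of the zinc list rose. MT1E does not stand for the metallothioneins. Summed over the zinc list, the level went from 552, 563 and 515 TPM in vehicle B to 643, 722 and 772 TPM in EESF. MT2A was the most abundant gene of that list. Of 17 iron and ferroptosis genes 3 rose (17.6%) and STEAP3 (−0.73) fell (5.88%). Of 15 tubulin genes, TUBE1 (0.73) rose and none fell, and TTC5 (−0.59), which triggers decay of tubulin mRNA, fell, a call that was lost at equal depth and without EESF replicate 2 or vehicle B replicate 1 or 2. Of 12 glucocorticoid receptor targets, DUSP1 and ANGPTL4 rose (16.7%), with NR3C1 at −0.51 and not a DEG. Of 8 liver X receptor targets, NR1H3 (0.81) rose and SMPDL3A (−1.05) fell (12.5% each), and without EESF replicate 1 or vehicle B replicate 1 a second gene rose. None of 13 mitochondrially encoded mRNAs was a DEG, though MT-ND6 (0.58) became one without EESF replicate 1 or vehicle B replicate 1.

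Falling DEGs lay more often in long loci and rising DEGs in short ones. When genes were sorted into 5 groups of equal size by the length of the locus, 14% of the shortest group (0.207 to 11 kb) rose and 6.07% fell. In the longest group (102 to 2242 kb) 3.47% rose and 19.4% fell. The groups between gave 10.8, 7.22 and 5.58% rising and 5.39, 6.23 and 8.82% falling, so the share of risers dropped at each step. The median locus was 17.8 kb for rising DEGs, 71.5 kb for falling DEGs and 33.9 kb for all genes tested. Several large falls belong to long loci, among them receptors, guidance cues and channels named above. Median exon length showed the same order, at 4.01 kb for rising, 6.83 kb for falling and 5.44 kb for all genes. The part of gene length in the calls was not tested.

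**Figure D4:**
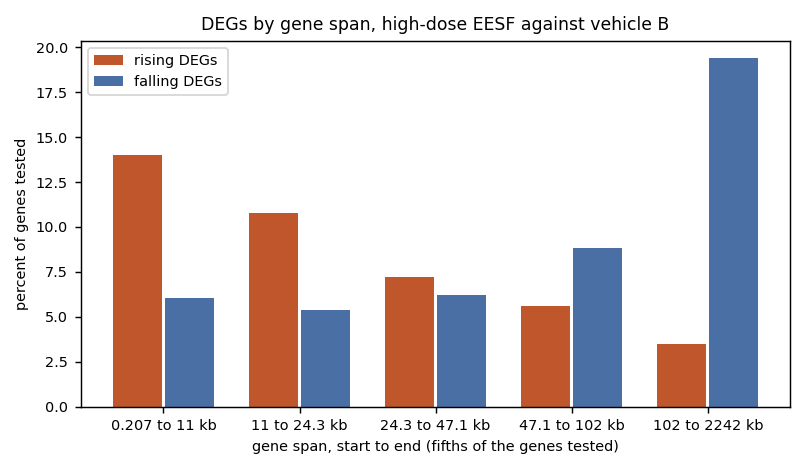
Percent of genes tested that were rising or falling DEGs at high-dose EESF, in 5 groups of equal size by span from start to end on GRCh38 (kb). Rising DEGs go from 14% in the shortest group to 3.47% in the longest, and falling DEGs from 6.07% to 19.4%.

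Long non-coding RNAs were tested in a fit over all 15973 genes of the table. Of 1770 lncRNAs 272 rose (15.4%) and 199 fell (11.2%), beside 8.88% and 9.54% of all genes and 7.85% and 9.33% of protein-coding genes. The share called also moved with abundance: when protein-coding genes were sorted into 5 groups by abundance, the lowest group (6.2 to 138 normalized counts) had 17.4% rising and 18.7% falling and the highest 3.93% and 4.16%. The difference between lncRNAs and protein-coding genes was not tested. ENSG00000263424 (chr18:67506589-67514030, plus strand) had 280, 310 and 310 estimated counts in vehicle B and was listed at 0 in all 3 EESF libraries. Against a floor of 3 counts per library it was at least 150-fold lower. The same lncRNA had 40 to 219 counts at medium-dose EESF, 123 to 225 at low dose, 7 to 62 at high-dose WESF and 338 to 478 in vehicle A. LINC01963 fell from 226, 195 and 259 normalized counts to 53.5, 39.6 and 45.2, and the antisense genes TPM1-AS and RAP2C-AS1 fell by log2 1.45 and 1.43. LINC01119 rose from 143, 154 and 155 to 441, 404 and 471, ENSG00000254559 by log2 2.10, ENSG00000224945 by 1.47 and CTC-338M12.4 by 1.34. The kit kept strand, but the strand setting of the counter is not given in the sources used here, so antisense genes and their partners cannot be told apart with certainty.

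Few genes were DEGs at the lower EESF doses, and the step to the top dose was tested by setting the high dose against the low dose. In that comparison 1927 of 13197 genes were DEGs (14.6%), 851 higher (6.45%) and 1076 lower (8.15%) at the high dose. It uses the same treated libraries as the comparison with vehicle B. Against vehicle B, 98 genes (0.755%) were DEGs at the medium dose and 35 (0.271%) at the low dose, each with the same vehicle libraries. TXNIP was at log2 −0.16 at the low dose, 0.47 at the medium dose and 4.82 at the high dose, and its difference between high and low dose was 4.97 (adjusted p = 5.5e-15). TRIB3 was at 0.01, 0.15 and 1.42, HSPA5 at −0.04, 0.04 and 0.84, and ITGB8 at −0.24, −0.55 and −3.22. The median of the ATF4 list was 0.06, 0.11 and 0.73, and that of the interferon-stimulated genes 0.10, −0.03 and −0.42.

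EGR1 was a DEG at the lowest dose. It was at log2 −1.13 at the low dose, −1.04 at the medium and −1.34 at the high dose, with a difference between high and low dose of −0.21 (adjusted p = 0.0264). MKI67 was at −0.45, −0.49 and −0.43, and the difference between high and low dose was 0.02 (adjusted p = 0.885). CYP1A1 was at 0.75, 0.72 and 0.93, where the low-dose and medium-dose values did not pass the test (adjusted p = 0.0868 and 0.0637). NFKBIA was at 0.40 at the low dose, 0.45 at the medium and 0.19 at the high dose. BCL2L11 was at −0.42, −0.57 and −0.86. All 3 doses were set against the same 3 vehicle libraries, so for values alike at every dose, as nearly in EGR1 and MKI67, an effect of the lowest dose and a vehicle group that lies apart cannot be told apart.

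**Figure D5:**
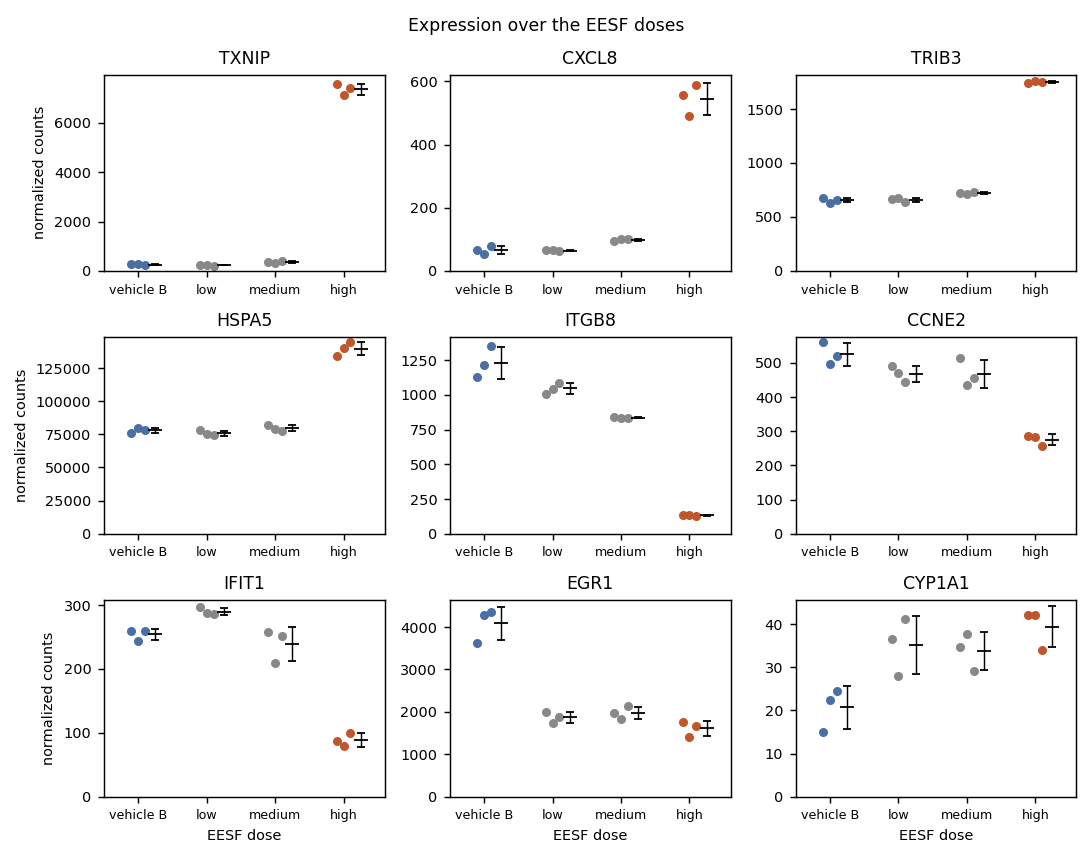
Normalized counts of 9 genes in each library of vehicle B and of low-, medium- and high-dose EESF (12.4, 62 and 310 µg/mL), with bars for the mean and SD over 3 libraries. For TXNIP, CXCL8, TRIB3, HSPA5, CCNE2 and IFIT1 the high-dose libraries stand apart from the rest, ITGB8 is lower at each dose, and EGR1 is lower than in vehicle B at all 3 doses.

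The change with high-dose EESF and that with high-dose WESF, each against its own vehicle, were set against each other in a fit with an interaction term. Of 13376 genes, 519 (3.88%) changed by different amounts, 285 with the higher value in EESF (2.13%) and 234 with the lower (1.75%). The extracts differed in dose, 310 against 500 µg/mL, and were run in different batches, so extract, dose and batch cannot be told apart. TXNIP was at log2 4.82 in EESF and 5.14 in WESF, and the difference of −0.32 was under the fold threshold (adjusted p = 0.0086). CXCL8 was at 3.02 against 4.50, a difference of −1.48 (adjusted p = 9.33e-05). VAV3 fell less with EESF, with a difference of 0.96. For ITGB8 the difference was 0.08 ± 0.16 SE (adjusted p = 0.751). The median of the ATF4 list was 0.73 in EESF and 0.99 in WESF, and that of the hypoxia list 0.12 and 0.43; list medians were not tested between the extracts.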

How the data were processed

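The deposited table used here held expected counts per gene for 24 libraries. Per the labels and the study's methods, the authors prepared strand-specific mRNA libraries and read 100 bp pairs on an MGI sequencer. Per the same sources, reads were checked and trimmed with FastQC 0.11.9 and Trim Galore 0.6.6 and aligned to GRCh38 with STAR 2.7.9a. Expected counts and TPM were estimated there with RSEM 1.3.3, which divides reads that match several genes among them. The strand setting of RSEM is not given in the sources used here, and the methods write the build as GRCh38 (hg19).

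Expected counts were rounded, protein-coding genes of GENCODE v44 were kept, low genes were removed with filterByExpr, and TMM factors were used. A gene low in 1 group could pass that filter through the other group, so for such genes being tested depended on the change. High-dose EESF was tested against vehicle B with the quasi-likelihood test of edgeR 4.0.16 (R 4.3.3) on those 6 libraries alone, two-sided, with Benjamini-Hochberg adjustment. DESeq2 1.42.0 was an alternative. SE is the log2 change divided by the square root of F. Normalized counts are counts scaled by the effective library sizes to their mean over the 6 libraries. The same test set high against low dose, and an interaction term set the EESF change against the WESF change. Nothing says that the replicates were separate cultures from separate passages, so p-values measure the spread between these libraries, which may be technical.

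The comparison, the 57 gene lists and the tests were chosen with earlier results of these data known. The genes named were the 12 DEGs that rose most and the 12 that fell most, where libraries of the groups did not overlap and the mean reached 100 normalized counts, up to 3 DEGs per list and direction with a mean of at least 20 (where a list had none, its member with the smallest adjusted p), the factors that give lists their names, and the 4 largest rises and falls among lncRNAs. Other list members, the gene families and the promoters shown were chosen after their values were seen. Of 1278 list genes, 1086 passed the filter on low counts. Some genes and 1 of the lists are not reported here.

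Promoters are from RefSeq (GRCh38.p14; 250 bases before to 50 after each start). They were found for 815 of 1075 rising and 951 of 1201 falling DEGs, under 80% because the table is not complete, so a comparison of motifs between rising and falling DEGs is void and not given.

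The fit was checked on simulated data with known changes. Of 109 genes changed by log2 1 in either direction, 96 were recovered (91.4% of those that passed the filter). All 91 genes changed by log2 2 were recovered, and 3 of 190 calls were false. Alternatives were DESeq2, its size factors, no filter, all genes, all 4 groups of batch B, no threshold on fold, equal depth, a replicate block, each library left out in turn and a shorter promoter window.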

Additional observations from a re-analysis of the deposited data

Results flagged for a closer look

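The rule for named genes chose 214, and for 33 of those reported the change from vehicle differed between the extracts at the high dose, by an interaction test across all genes (edgeR adjusted p under 0.05 and a difference beyond 1.5-fold), where 3.88% of all genes passed. Most were chosen for a large change with EESF, which enters this test, so the shares are not like for like. The values are the log2 change with EESF minus that with WESF, and extract, dose and batch cannot be told apart in them. Some inflammatory and early response genes had the lower value with EESF, namely CXCL8 (−1.48), PTGS2 (−1), EGR1 (−0.96), REL (−0.76), FOS (−0.76), ATF3 (−0.74), DUSP1 (−0.71) and IL1B (−0.66), while EGR3 (0.64) went the other way. Others of the same lists did not pass, such as CXCL5 (−0.08), IER3 (0.05), FOSL1 (0.07), KLF2 (0.10) and CSF3 (1.09, adjusted p = 0.0829). The same direction held for the stress and death genes DDIT4 (−0.89), PMAIP1 (−0.88), BCL2L11 (−0.63) and CHAC1 (−0.62), for the metabolic genes PDK4 (−1.17) and SLC38A2 (−0.76), and for THBD (−0.75), ADAMTS9 (−0.65) and PANX2 (−0.60). Other stress and death genes did not pass, such as BMF (0.11), GDF15 (−0.25) and PYCR1 (0.02).

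The higher value with EESF was found for CYP1A1 (1.06), the aryl hydrocarbon receptor target, and for the receptors HTR2A (0.91) and DRD1 (0.88). VAV3 (0.96), HS3ST1 (1.00), HLF (0.78), TCF7 (0.77), RAB7B (0.74) and FAM13C (0.71) belonged to the same direction, as did the BMP genes ID2 (0.75) and BMP4 (0.60). MT1E (0.78), KRT18 (0.75), MT-ND6 (0.75) and TFEB (0.60) completed the set. MT-ND6 is read from the strand opposite to most mitochondrial genes, and the strand setting of the counter is not given in the sources used here.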

How the results depend on the processing

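The count of DEGs stayed within 1.5 times of 2276 under every alternative except dropping the threshold on fold, which gave 7589: it was 2104 with DESeq2, 2417 with no filter, 2943 over all genes, 2191 at equal depth and 2133 to 2453 with single libraries left out. Replicate numbers did not pair the libraries (correlations of deviations −0.12, 0.01 and −0.10), and with the numbers as a replicate block the counts were 2228 DEGs, 1923 between high and low dose and 437 between the extracts. For high against low dose the count was 1839 to 2065 and for the extracts 385 to 729 with single libraries left out. Of 277 DEGs in a list, 236 were DEGs under all 13 alternatives. The G2/M median of 0.20 became 0.19 with DESeq2, its size factors, all 4 groups or no filter, 0.18 over all genes and 0.20 at equal depth, where the AP-1 median was −0.03, semaphorins −0.34, receptor tyrosine kinases −0.12, ABC transporters −0.14 and lysosome −0.09. Over all genes the medians of lysosome and autophagy were −0.12 and 0.12. The causes were not tested. CDKN1A ranged from −0.07 to 0.01 (without vehicle B replicate 2), and HIF1A to −0.02 without high-dose EESF replicate 1 and −0.03 without vehicle B replicate 1.

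With single libraries left out, list medians that moved by more than the spread between treated libraries ranged as follows. Glycolysis ran from −0.10 to −0.03, hypoxia 0.11 to 0.17, NRF2 0.25 to 0.30, amino acid transporters 0.09 to 0.17, cholesterol −0.16 to −0.08, G2/M 0.18 to 0.21, cytokines 0.62 to 0.99 and NF-kappaB 0.19 to 0.28. Interferon-stimulated genes ran from −0.49 to −0.37, AP-1 −0.05 to 0.14, TGF-β −0.11 to 0.01, SRF −0.24 to −0.18, integrins −0.16 to −0.05, semaphorins −0.31 to −0.25, receptor tyrosine kinases −0.13 to −0.05 and neurotransmitter receptors −0.48 to −0.36. Iron ran from 0.07 to 0.14, ABC transporters −0.24 to −0.16, lysosome −0.14 to −0.08, autophagy 0.11 to 0.15, tubulins −0.01 to 0.07, clock −0.41 to −0.34, glucocorticoid targets −0.04 to 0.00, oligodendrocyte markers −0.09 to −0.03 and fibroblast markers −0.42 to −0.34. Counting only the 250 bases before the start, 8.12% of promoters of genes tested held the E-box letters, 11.5% the antioxidant response element, 1.64% the ATF4 element, 8.23% the E2F and 9.24% the CHR letters. The vehicle libraries were shallower, which limits calls for low genes.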

Other observations

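Cadherin and protocadherin genes, which hold neighbouring cells together, fell as a family that was picked out after its values were seen. Of 49 tested, 39 were falling DEGs (79.6%) and PCDH1 was the 1 that rose, with a median log2 change of −0.87, beside 9.17% falling over all genes tested. PCDH19 was at log2 −3.14, CDH10 at −2.83, PCDH18 at −1.97 and FAT4, a giant cadherin counted outside the 49, at −1.29, whereas CDH2, the N-cadherin of glia and neurons, was at −0.16 and not a DEG. Many of these genes lie in the protocadherin clusters of chromosome 5, whose members share exons among which the read counter divides reads, so their values are not independent. On chromosome 5 as a whole 40 of 613 genes rose (6.53%, beside 8.21% of all genes tested) and 102 fell (16.6%, beside 9.17%).

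Chromosome 19 leaned the other way, with 142 rising DEGs (14.7%) and 31 falling DEGs (3.22%) among 963 genes tested. Chromosomes 22 (12.2% rising and 4.5% falling), 17 (11.6% and 5.57%), 16 (10.5% and 5.65%) and 20 (10.5% and 5.54%) leaned the same way. Genes annotated as read-through transcripts, which join neighbouring loci, had 27 rising (18.1%) and 9 falling DEGs among 149, with a median log2 change of 0.31. Of 464 zinc finger genes with ZNF symbols 17 rose (3.66%, beside 8.21% of all genes tested) and 36 fell (7.76%, beside 9.17%). The part of gene length, which differed between rising and falling DEGs, in these shares was not tested.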
